A study of Homo sapiens with 9 samples.

Results

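The genes described here are 9 components of the type I interferon response, matched by Ensembl identifier out of 57820 gene identifiers counted in each library: the receptor chains IFNAR1 and IFNAR2, the kinases JAK1 and TYK2, the transcription factors STAT2, IRF9, IRF1 and IRF7, and the inhibitor USP18. They were chosen by name and role, with earlier results of these data known. All 9 passed the filter on low counts (at least 1 CPM, reads scaled to library size, in at least 2 libraries). RNA came from Daoy cells, an established human medulloblastoma line, in a study of the RNA helicase DDX3X. The 2 controls were parental cells and vector control cells. The 3 knockdown libraries came from polyclonal populations carrying a doxycycline-inducible hairpin in tet-pLKO-puro, directed at the 3' UTR of DDX3X (shDDX3X 1 and 3) or at its open reading frame (ORF, shDDX3X 2). The other 4 libraries came from cells with the 3' UTR hairpin that were stably transfected with FLAG-tagged DDX3X in pCMV10-3xFlag, as the wild type or with the substitution G302V, R534H or P568L, and 1 library stands for each construct. The labels give the same treatment, doxycycline at 1 µg/ml for 72 h, for every library, and do not say whether each control received it. No library is labelled as treated with an interferon.

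Type I interferons bind a receptor made of IFNAR1 and IFNAR2, whose tails hold the kinases TYK2 and JAK1. The kinases phosphorylate STAT proteins, among them STAT2, which joins IRF9 in ISGF3, a complex that binds interferon-stimulated response elements (ISRE) and switches on antiviral genes. IRF7 and IRF1 are transcription factors that act in the induction of interferons and of interferon-stimulated genes, and both are themselves inducible by interferons. USP18 removes the modifier ISG15 from proteins, binds IFNAR2 and limits signalling from the receptor. DNA sites of STAT dimers, called gamma-activated sites (GAS), have the letters TTCNNNGAA.

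Promoter sequence was read for the members because ISGF3 and STAT dimers act through short sites near gene starts, and ISGF3 components can themselves be interferon-inducible. RefSeq promoters (GRCh38.p14, 250 bases before to 50 after a start) were given for 6 of the 9 genes and gave 9 windows, with none for IFNAR2, IRF7 and USP18. The ISRE, searched on both strands as the letters TTTC, any 2 bases and TTTC again, was in 0 of these windows and in 3.57% of 35116 RefSeq promoters. The GAS letters were in the IRF9 and IRF1 windows, each without an overlap with the other motif, and in 7.66% of those promoters. Both matches are shown 5′ to 3′ on the gene's strand with the motif in capitals, the only ones found in the members' windows:
IRF9: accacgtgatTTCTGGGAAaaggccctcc
IRF1: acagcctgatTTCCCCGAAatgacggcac
The IRF9 stretch is chr14:24161192-24161220 on the plus strand, with the motif's first base at -63 from the start. The IRF1 stretch is chr5:132490879-132490907 on the minus strand, with the motif's first base at -124. A match describes these letters only, and binding was not measured.

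Reads assigned to genes ranged from 8216568 to 13030572 per library. The numbers in the deposited names form 2 runs, called number series here: A holds parental, shDDX3X 1 and shDDX3X 2, and B holds the other 6 libraries. The share of reads that did not align was 5.24% to 5.73% in series A and 19.6% to 24.0% in series B. DDX3X was at 683.2 and 452.5 CPM in the parental and vector libraries and at 138.9 to 249.01 CPM in the 3 knockdowns. In the libraries labelled as re-expressing DDX3X it was at 195.2 CPM for the wild type and at 197.8, 211.4 and 241.8 CPM for G302V, R534H and P568L, within the knockdown range and at 43.1% to 53.4% of the vector level. The total DDX3X count therefore does not show the re-expression that the labels give, and it cannot tell RNA of the construct from endogenous RNA. The names wild type and mutant are used below as the labels give them. VIM and PTCH1, a filament gene and the hedgehog receptor gene, had at least 433 counts in every library, whereas ATOH1, a granule-lineage factor, had at most 1 count. Of 8 blood cell markers, PTPRC, CD3E and CD68 had at most 1 count in any library, and the summed level of all 8 was 7.17 to 7.99 CPM in controls, 8.88 to 9.69 in knockdowns, 11.2 with wild type and 7.53 to 8.24 with the mutants; its part in the results was not tested. In bulk RNA, fewer cells of a kind and less RNA per cell cannot be told apart. The labels do not say that the replicates are separate cultures, so p-values measure only the spread between these libraries, which may be technical.

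The parental library differed from the vector library along the GC content of transcripts, and TYK2 and IRF7 are the members richest in GC. The part of GC content in their values was not tested. Over 11590 genes with a mean of at least 5 CPM and a known GC content, the median log2 ratio of parental to vector was 0.71 in the bin of genes centred on 34% GC, 0.01 at 50% and -1.86 at 66%. IRF7 (66.8% GC, above 98.7% of these genes) had a ratio of -2.42 and TYK2 (61.3%, above 89.4%) had -1.68, both lower in the parental library, where the median gene was at -1.16 in the bin at 62%. STAT2 (51.6% GC, log2 ratio 0.60) and IRF9 (55.4%, 0.43) were higher in the parental library, where the median gene was at 0.01 in the bin at 50% and at -0.22 in the bin at 54%. Removing a fitted GC trend from each library was therefore one of the alternatives, and its values are given where they differ.

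The levels of the 9 genes were first compared per length, as RPKM (CPM per kilobase of the gene's principal transcript). By their medians over the 9 libraries the order was JAK1 (45.8 RPKM), TYK2 (35.7), STAT2 (34.2), IRF1 (21.6), IFNAR1 (13.9), USP18 (9.82), IFNAR2 (4.70), IRF7 (2.89) and IRF9 (1.38). The genes at either end did not overlap, with JAK1 between 40.3 and 55.7 RPKM and IRF9 between 0.772 and 3.77. Every pair of neighbours in this order overlapped in its range over the 9 libraries. Compared within each library, JAK1 was above TYK2 in all 9, by 55.7 against 11.3 RPKM in parental cells and 40.3 against 36.7 with wild type. Every other pair of neighbours changed order between libraries, so those ranks were not separated.

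The ranks of IRF9 and IFNAR2 carry a limit of counting. All 1838 bases of the principal IRF9 transcript lie in exons shared with AL136295.5, a gene on the same strand, and counters that set aside reads shared by several genes would lose them. AL136295.5 itself had 2 to 15 counts per library, against 12 to 89 for IRF9. For IFNAR2, 90.3% of the principal transcript is shared with other genes, and with unshared exon bases as the length its median was 17.6 RPKM, rank 4 of 9. IRF1 shares 16.2% of its principal transcript with antisense genes, which an unstranded library cannot separate, and the JAK1 transcript shares 4 bases. These limits bear on levels set between genes.

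Receptors and kinases as a class were above the transcription factors as a class in all 9 libraries. The order did not hold gene by gene, since STAT2 (34.2) and IRF1 (21.6) had higher median RPKM than IFNAR1 (13.9) and IFNAR2 (4.70). IRF9 and IRF7 had the lowest medians, and the IRF9 and IFNAR2 levels carry the counting limit given above. From summed RPKM, where IRF9 weighs little, the factors held 34.4% to 43.6% of the total of both classes. The mean of log2(RPKM + 0.1) over STAT2, IRF9, IRF1 and IRF7 minus that over IFNAR1, IFNAR2, JAK1 and TYK2 was -1.22 in parental and -0.86 in vector cells. It was -1.62, -1.54 and -1.43 in shDDX3X 1, 2 and 3. It was -1.02 with wild type and -1.14, -0.93 and -1.53 in the G302V, R534H and P568L lines. The 3 knockdowns therefore lay below both controls, below wild type and below G302V and R534H, while P568L lay among the knockdowns.

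The mean difference was -1.04 ± 0.26 (SD, n = 2) in controls, -1.53 ± 0.10 (SD, n = 3) in knockdowns and -1.20 ± 0.30 (SD, n = 3) with the mutants. The knockdown minus control gap was -0.49 on the log2 scale. It is a description without a test, since the genes were chosen with results known. The classes behind it differed by series. In series A the transcription factor mean was 2.79 in parental cells and 2.77 and 2.84 in shDDX3X 1 and 2, while the receptor and kinase mean was 4.01 against 4.395 and 4.38. In series B the transcription factor mean was 3.19 in vector cells and 2.63 in shDDX3X 3, while the receptor and kinase mean was 4.05 and 4.06. As class means, the gap lay in the receptors and kinases in series A and in the transcription factors in series B. This difference was not tested. The series A means hide opposite changes in shDDX3X 1 and 2 against parental. IRF7 (log2 ratios 2.06 and 2.46) and IRF1 (1.12 and 0.48) were higher, and IRF9 (-1.97 and -1.89) and STAT2 (-1.23 and -0.80) were lower. TYK2 was at 1.25 and 1.16, while IFNAR1, IFNAR2 and JAK1 ranged from -0.19 to 0.39. Without IRF7 and TYK2 the class difference was -0.32 in parental and -1.08 and -1.14 in shDDX3X 1 and 2. The gap was -0.27 from summed levels, -0.31 without the vector library and -0.79 without IRF7. The gap without IRF9 is not given here. IRF9 weighs as much as each other factor in this score, and its mean RPKM was 3.26 in controls and 0.907 in knockdowns. STAT2 was also lower (41.5 and 27.1), while IRF1 (15.8 and 26.1) and IRF7 (2.58 and 2.88) were higher. The gap is therefore not a shift shared by the 4 factors.

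**Figure D1:**
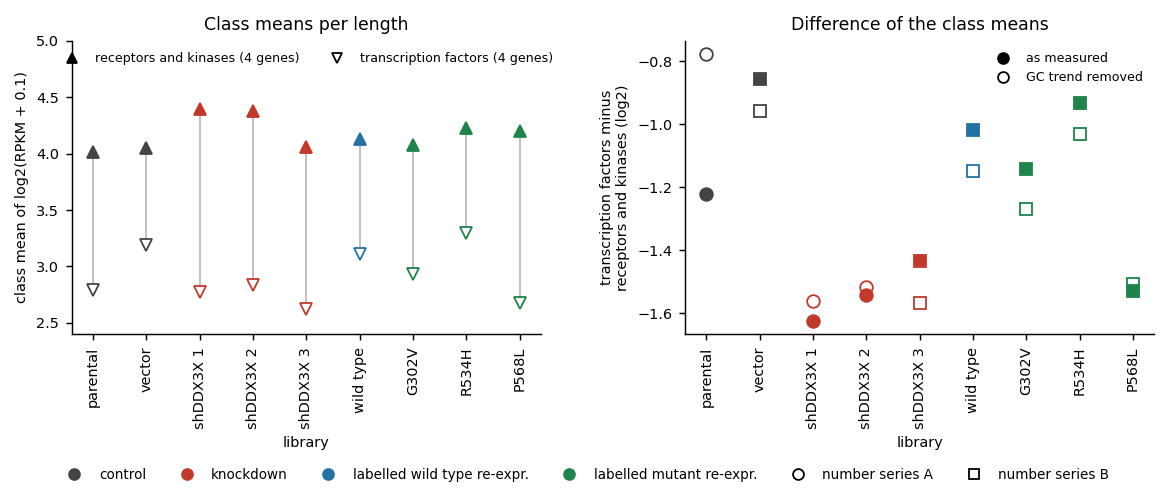
Left, the class mean of log2(RPKM + 0.1) for receptors and kinases (filled) and transcription factors (open) in each library. Right, their difference as measured (filled) and with each library's GC trend removed (open); the knockdowns lie at -1.62 to -1.43 as measured and the controls at -1.22 and -0.86.

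With the GC trend removed, the same differences were -0.78 and -0.96 in parental and vector cells and -1.56, -1.52 and -1.57 in the 3 knockdowns. They were -1.15 with wild type and -1.27, -1.03 and -1.51 in the G302V, R534H and P568L lines. The controls drew closer together and the knockdowns and P568L kept the lowest values. Within the transcription factor class, summed as RPKM, IRF9 held 5.38% and 4.87% in the controls, whereas STAT2 held 71.4% and 58.6%, so a summed level mostly follows STAT2 and IRF1.

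In knockdown against control, none of the 9 genes passed the threshold (edgeR's quasi-likelihood test, Benjamini-Hochberg adjusted p under 0.05 over 16155 genes), where 0.675% of all genes tested did. At an unadjusted p under 0.05 there were 4 (IRF9, IRF1, STAT2 and TYK2), against 22.0% of all genes, and DESeq2 called 2 (IRF9 and IRF1), where it called 8.13% of all genes. Without a filter on low counts, edgeR called these 4, where it called 5.79% of all genes. IRF9 and STAT2 were lower in all 3 knockdowns than in both controls and IRF1 was higher. For all genes tested, 20.9% had groups that did not overlap (10.1% with knockdown higher and 10.8% with it lower), so 3 of 9 is close to the background by count. The median absolute log2 fold change was 0.62 over the 9 genes and 0.32 over all genes.

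**Figure D2:**
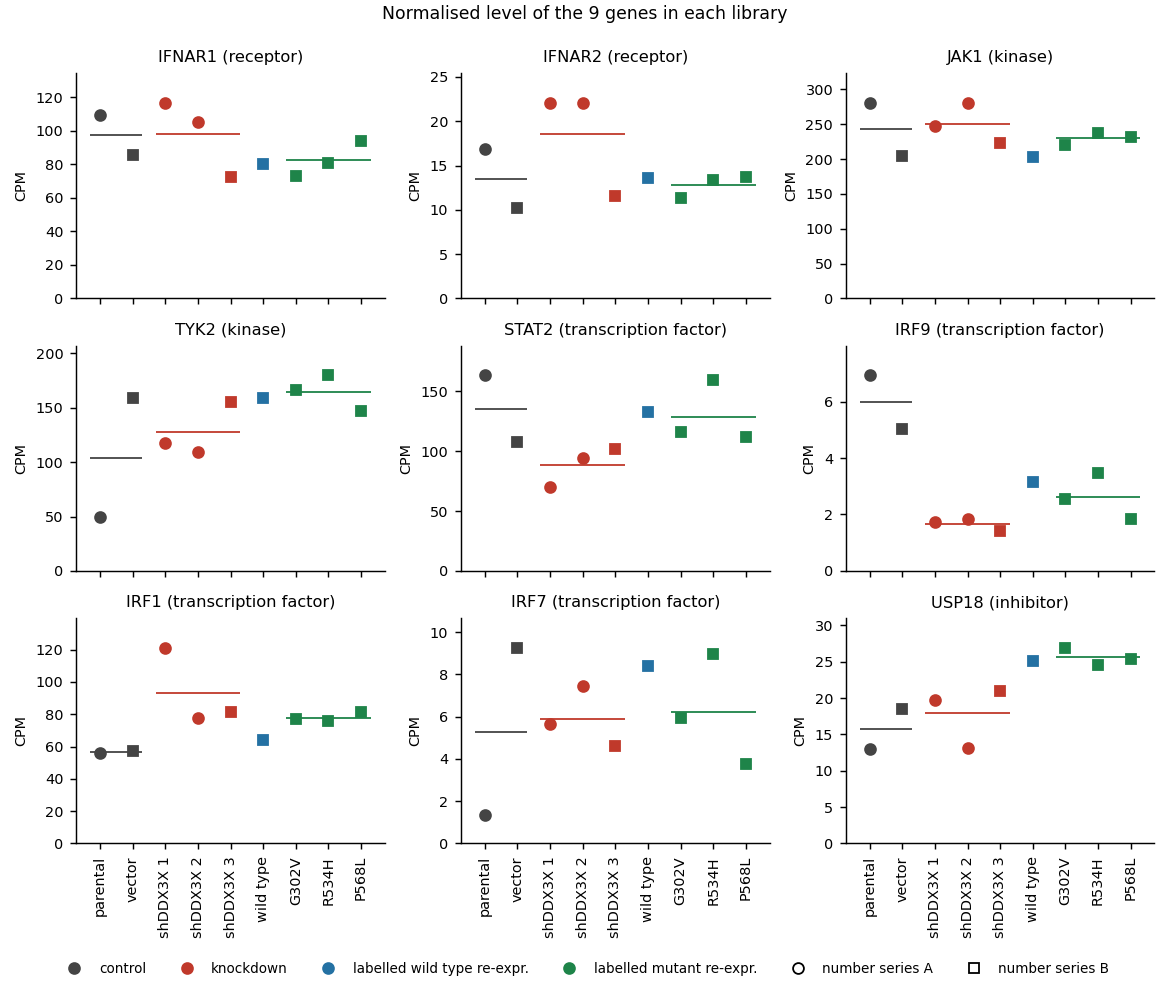
Normalised level (CPM, each axis from 0) of each gene in the 9 libraries, with horizontal lines at group means and circles and squares for number series A and B. IRF9 is at 1.42 to 1.84 CPM in the 3 knockdowns and at 5.03 and 6.94 in the controls.

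Among the receptors, IFNAR1, the chain that docks TYK2, was at 109 CPM in parental and 85.4 in vector cells, at 117, 105 and 72.2 in shDDX3X 1, 2 and 3, at 80.1 with wild type and at 72.8, 80.9 and 94.1 in the G302V, R534H and P568L lines. The knockdowns spanned both sides of the controls, and the 3 series A libraries were the highest of the 9. Its log2 fold change between knockdown and control was -0.09 ± 0.17 (SE, 95% interval -0.47 to 0.29, edgeR adjusted p = 0.805). IFNAR2, the chain that binds ligand with high affinity and docks JAK1, was at 16.8 and 10.2 CPM in parental and vector cells, at 22.1, 22.04 and 11.6 in the knockdowns, at 13.6 with wild type and at 11.4, 13.4 and 13.7 with the mutants. Each knockdown was above the control of its own series (log2 ratio 0.39, 0.39 and 0.19), but the groups overlapped and the fold was within the error (0.31 ± 0.21, SE, edgeR adjusted p = 0.425).

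IFNAR1, IFNAR2 and JAK1 were higher in every series A library than in any series B library, and TYK2 was lower. Of all genes tested, 23.8% were separated by series in one direction or the other, against 4 of the 9 here.

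Among the kinases, JAK1 was at 281 and 204 CPM in parental and vector cells, at 247, 280.02 and 224 in the knockdowns, at 203 with wild type and at 220.1, 237 and 231 in the G302V, R534H and P568L lines. The 9 libraries stayed within a 1.38-fold range, the narrowest of the 9 genes. The knockdown log2 fold change was 0.00 ± 0.15 (SE), with a 95% interval for the fold of 0.800 to 1.25 (edgeR adjusted p = 0.996). The interval bounds the size of a change in JAK1 but does not show that there was none.

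TYK2, the other receptor-bound kinase, was at 49.2 CPM in parental cells and 159 in vector cells, at 117, 109.6 and 155 in the knockdowns, at 159 with wild type and at 166, 180.1 and 147 with the mutants. The parental library was the lowest of all and the vector library was above all 3 knockdowns. Pooled, the log2 fold change was 0.65 ± 0.26 (SE, edgeR adjusted p = 0.190). It came from series A, where shDDX3X 1 and 2 were at log2 ratios of 1.25 and 1.16 to parental, whereas shDDX3X 3 was at -0.04 to vector. The fitted GC trend for TYK2 in the parental library was -0.95, and with it removed from all libraries the fold was 0.12. TYK2 passed the threshold without the vector library (log2 1.20, adjusted p = 0.00325, where 12.9% of all genes were called) and without shDDX3X 3 (1.21, 0.0033, where 13.0% were), and was at -0.04 (0.978) without the parental library.

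IRF9, the DNA-binding partner of STAT2 in ISGF3, had the largest difference of the 9 genes. It was at 6.94 and 5.03 CPM in parental and vector cells, at 1.74, 1.84 and 1.42 in the knockdowns, at 3.15 with wild type and at 2.54, 3.49 and 1.84 in the G302V, R534H and P568L lines. All 3 knockdowns were below both controls, and all 4 libraries labelled as re-expression lay between the controls and shDDX3X 3. The counts behind these levels were 89 (parental), 51 (vector), 21, 22 and 12 (shDDX3X 1, 2 and 3), 27 with wild type and 21, 33 and 24 with the mutants, so counting error is large for this gene. AL136295.5, which shares its exons, had 6 and 11 counts in the controls and 12, 13 and 2 in the knockdowns, and its part in the IRF9 values was not tested.

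The pooled IRF9 log2 fold change between knockdown and control was -1.90 ± 0.36 (SE; fold 0.268, 95% interval 0.153 to 0.470) with an edgeR adjusted p of 0.0511, which misses the threshold. The log2 ratios to the control of the same series were -1.97 and -1.89 for shDDX3X 1 and 2 and -1.78 for shDDX3X 3, nearly equal in both series. Of 16 alternatives with a test, 5 passed the threshold and 11 did not. The adjusted p was 0.0274 with the GC trend removed (1 of 9 called against 1.88% of all genes), 0.0124 by DESeq2, 0.000517 without a filter, 0.0164 without the vector library and 0.0157 without shDDX3X 3. It was 0.473 without the parental library, 0.129 without shDDX3X 1, 0.114 to 0.133 without each mutant, 0.202 without a series term, 0.301 with only the groups compared and 0.720 with the replicate block. Over all alternatives the log2 fold change stayed between -2.06 and -1.72.

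STAT2, the ISGF3 subunit that carries the activation domain, was at 163 and 107 CPM in parental and vector cells, at 69.8, 94.01 and 101 in the knockdowns, at 132.5 with wild type and at 116, 159 and 112 in the G302V, R534H and P568L lines. The knockdowns were the 3 lowest of the 9 libraries, but shDDX3X 3 was close to the vector library. The pooled log2 fold change was -0.62 ± 0.24 (SE, 95% interval -1.16 to -0.07, edgeR adjusted p = 0.181). Its log2 ratios to the same-series control were -1.23 and -0.80 in series A and -0.08 in series B. Without the parental library the fold was -0.08 (adjusted p = 0.962), and without the vector library it was -1.001 (0.0229).

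IRF1, a factor that binds similar response elements and can act apart from ISGF3, was at 55.9 and 57.4 CPM in parental and vector cells, at 121, 77.8 and 81.2 in the knockdowns, at 63.9 with wild type and at 77.1, 75.5 and 81.1 with the mutants. The controls were nearly equal and were the 2 lowest libraries, wild type came next, and shDDX3X 1 stood above all others. The log2 fold change was 0.69 ± 0.21 (SE; fold 1.61, 95% interval 1.16 to 2.24, edgeR adjusted p = 0.113), with log2 ratios of 1.12, 0.48 and 0.50 to the control of each knockdown's series. DESeq2 gave an adjusted p of 0.0422.

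IRF7, a factor central to the amplification of interferon production, was low throughout: 1.33 and 9.27 CPM in parental and vector cells, 5.63, 7.46 and 4.61 in shDDX3X 1, 2 and 3, 8.39 with wild type and 5.92, 8.98 and 3.76 in the G302V, R534H and P568L lines. Parental cells had 17 counts and were far below the other 8 libraries, which had 39 to 94. The pooled log2 fold change was 0.68 ± 0.73 (SE, edgeR adjusted p = 0.632), which covers opposite values in the 2 series: 2.06 and 2.46 in series A and -0.997 in series B. The fitted GC trend for IRF7 in the parental library was -1.78, and with the trend removed the pooled fold was -0.32.

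USP18, the inhibitor, was at 13.0 and 18.4 CPM in parental and vector cells, at 19.8, 13.2 and 20.9 in the knockdowns, at 25.1 with wild type and at 27.0, 24.6 and 25.4 in the G302V, R534H and P568L lines. The 4 libraries labelled as re-expression were the 4 highest of the 9 and lay close together. For 2.22% of all genes tested these 4 were likewise above the rest. All 4 belong to series B, where USP18 was at 18.4 to 27.0 CPM against 13.0 to 19.8 in series A. Against shDDX3X 3, the knockdown of that series, they were 1.18 to 1.29 times as high. Knockdown and control overlapped (log2 0.27 ± 0.22, SE, edgeR adjusted p = 0.516). Reads of USP18 may be split with its near-identical copy USP41, which had 1 to 9 counts against 157 to 331 for USP18.

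**Figure D3:**
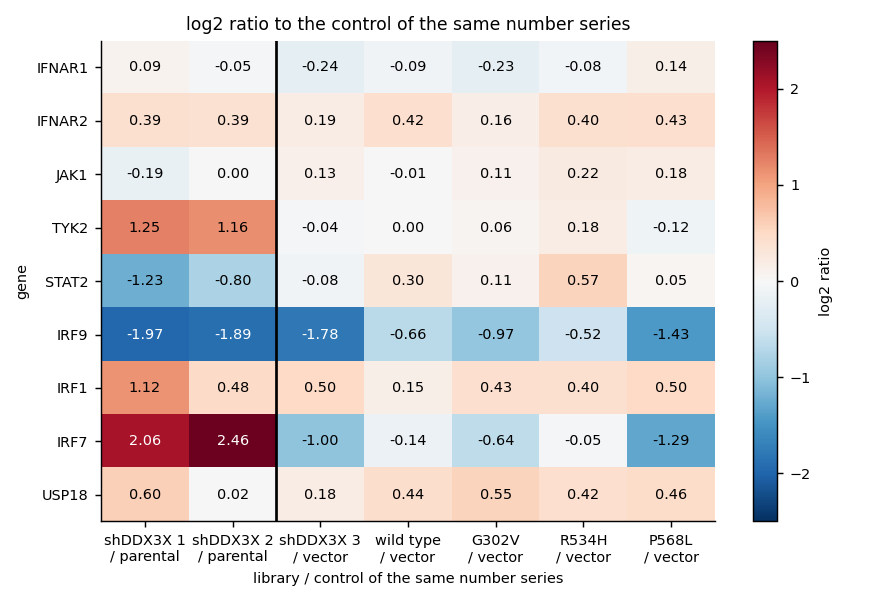
The log2 ratio of each of the 9 genes to the control of the same number series, with shDDX3X 1 and 2 set against parental (left of the line) and the other 5 libraries against vector. IRF9 is low in all 3 knockdowns (-1.97, -1.89 and -1.78), while TYK2, STAT2 and IRF7 differ between the series.

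The libraries labelled as re-expressing DDX3X, whose DDX3X levels lay within the knockdown range, were compared with knockdown next. With wild type, 0 of 9 genes passed the threshold by edgeR, where 0% of all genes did, and 0 were at an unadjusted p under 0.05, against 2.92% of all genes. DESeq2 also called 0. IRF9 had a log2 fold change of 1.19 ± 0.54 (SE; 95% interval -0.02 to 2.404), STAT2 0.63 ± 0.34 (-0.13 to 1.40) and IRF1 -0.44 ± 0.30 (-1.11 to 0.22), all with an edgeR adjusted p of 1. In knockdown against control the same 3 genes were at -1.90, -0.62 and 0.69, a comparison that shares the knockdown libraries. With 1 wild type library, the fit assumes that it varies like the other groups.

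The 4 libraries labelled as re-expression all belong to series B, where shDDX3X 3 is the only knockdown, so its values were also set beside them directly. Against shDDX3X 3, IRF9 was 2.17 times as high with wild type and 1.76, 2.396 and 1.27 times in the G302V, R534H and P568L lines. STAT2 was 1.31 times as high with wild type and 1.14, 1.57 and 1.10 times with the mutants. IFNAR1, STAT2, IRF9 and USP18 were above shDDX3X 3 in all 4 libraries labelled as re-expression, 4 of 9 genes against 19.2% of all genes tested. For IFNAR1 the G302V library was only 1.01 times as high. JAK1 and TYK2 stayed between 0.909 and 1.16 times the level of shDDX3X 3 in these 4 libraries.

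With the mutants taken as a group, 0 of 9 genes passed the threshold against knockdown, where 0% of all genes did by edgeR, and 0 were at an unadjusted p under 0.05, against 5.53% of all genes. DESeq2 also called 0. IRF9 had a log2 fold change of 0.92 ± 0.44 (SE; 95% interval -0.06 to 1.90, edgeR adjusted p = 0.832) and STAT2 0.59 ± 0.27 (-0.02 to 1.20, 0.832). STAT2 and USP18 were higher in all 3 mutants than in all 3 knockdowns, against 14.6% of all genes with groups that did not overlap. Without shDDX3X 3 the test called TYK2 and IRF7, both with negative folds, where it called 6.20% of all genes. In that fit the series term rests on the parental and vector libraries alone, which differ along GC content. TYK2 was at 166, 180.1 and 147 CPM with the mutants, above shDDX3X 1 and 2 (117 and 109.6).

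Against the controls, the mutants had 0 of 9 genes called by edgeR, where 0.0186% of all genes were, and 2 at an unadjusted p under 0.05 (IRF9 and IRF1), against 11.9% of all genes. DESeq2 called 0. IRF9 was below both controls in all 3 mutants (log2 -0.98 ± 0.40, SE, edgeR adjusted p = 0.385). IRF1 and USP18 were above both controls in all 3 mutants, with log2 fold changes of 0.53 ± 0.23 (adjusted p = 0.405) and 0.52 ± 0.25 (0.442). These 3 are named because their groups did not overlap, as was the case for 36.2% of all genes. TYK2 was called without the vector library, in a fit that called 4.84% of all genes. The controls are also part of the knockdown comparison, so IRF9 being low in both shares their values.

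Mutants and wild type did not differ detectably. The 9 log2 fold changes ranged from -0.44 (IRF7) to 0.29 (IRF1), with an edgeR adjusted p of 1 for each. None of the 9 and 0% of all genes were called, 0 of the 9 and 1.95% of all genes were at an unadjusted p under 0.05, and DESeq2 called 0. For IRF9 the difference was -0.27 with a 95% interval of -1.32 to 0.77, which leaves room for differences of more than a log2 unit below wild type. Among single mutants, R534H had the highest IRF9, STAT2 and IRF7, each above wild type, and P568L had the lowest of each.

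**Figure D4:**
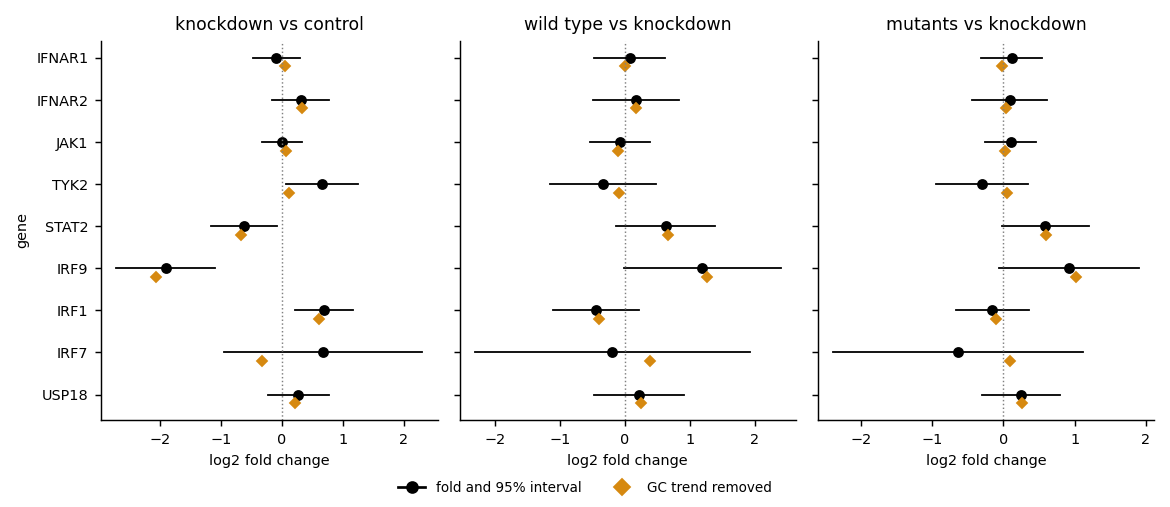
Log2 fold change of each gene (point) with its 95% interval (line) in knockdown against control, wild type against knockdown and mutants against knockdown, with the value after removal of the GC trend (diamond). IRF9 is at -1.90, 1.19 and 0.92, and the intervals of the last 2 reach zero.

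The ORF hairpin (shDDX3X 2) and the 3' UTR hairpin were compared within the same fit. None of the 9 genes was called by edgeR (0% of all genes), 0 had an unadjusted p under 0.05 (9.11% of all genes), and DESeq2 called 0. The log2 fold changes ran from -0.50 for IRF1 (95% interval -1.05 to 0.06) to 0.99 for IRF7 (-1.12 to 3.09). Without shDDX3X 1, the comparison called TYK2 and IRF7, where it called 5.77% of all genes.

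The remaining genes of the pathway were read from a list of 37, of which 24 passed the filter. Of these, 0 were called by edgeR in any of the 6 comparisons, where 0% to 0.675% of all genes were. In knockdown against control, 12 of them lay above and 12 below control, the median log2 fold change being 0.03, against -0.01 over all genes tested. At an unadjusted p under 0.05 there were 6 of the 24, against 22.0% of all genes, which is close to the background. Ligands were nearly absent. The genes IFNB1, IFNA1, IFNA2, IFNE, IFNW1 and IFNL2 had 0 counts in all 9 libraries, which allows up to 0.230 to 0.365 CPM per library (3 counts, counting error only). IFNK had 18 counts in parental cells and 0 elsewhere, and IFNL1 had at most 12.

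IRF3, which acts upstream of interferon production, had a log2 fold change in knockdown against control of 0.65 ± 0.20 (SE, edgeR adjusted p = 0.114), and IRF2, an antagonist of IRF1, had 0.54 ± 0.18 (0.134). The lowest adjusted p of the list belonged to PIAS4, a SUMO ligase that restrains STAT activity, with 0.96 ± 0.20 (0.0598). PIAS4 was at 19.9 CPM in parental and 48.7 in vector cells against 50.9, 46.2 and 71.1 in the knockdowns, so that parental cells stood apart and shDDX3X 2 was below the vector library. SOCS3, a feedback inhibitor of JAK kinases, had 0.57 ± 0.20 (0.150). JAK2 had -0.39 ± 0.23 (0.356) and JAK3, at most 1.74 CPM, 0.66 ± 0.57 (0.540). STAT5B had 0.40 ± 0.20 (0.271), and the receptor chains IFNGR1 and IL10RB had -0.37 ± 0.18 (0.261) and -0.39 ± 0.22 (0.335).

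Genes known as targets of ISGF3, a list of 45 that all passed the filter, give a readout of the complex. In knockdown against control 34 lay below and 11 above control, the median log2 fold change being -0.54 against -0.01 over all genes. Of the 45, 1 (BST2, a tether of budding virus) fell by the edgeR test (log2 -1.61 ± 0.28, SE, adjusted p = 0.0449), where 0.675% of all genes were called. BST2 and PARP9, an ADP-ribosyltransferase family member (log2 -1.38 ± 0.28, SE, edgeR adjusted p = 0.0569), had the lowest p of the list. With wild type against knockdown 38 were higher with a median of 0.84, and with the mutants 38 with a median of 0.56, and in neither was any called by edgeR. The medians over all genes were -0.02 and 0.01, and 0% of all genes were called in either. Both comparisons share the knockdown libraries with knockdown against control, so the opposite directions are not independent. Wild type is 1 library, DDX3X in the libraries labelled as re-expression was within the knockdown range, and the list was chosen with earlier results known. At an unadjusted p under 0.05 were 24 of the 45 in knockdown against control, 22 with wild type and 19 with the mutants, against 22.0%, 2.92% and 5.53% of all genes. Mutants against wild type had 40 of 45 lower, at a median of -0.29 against 0.01 over all genes, with 0 called and 1 at an unadjusted p under 0.05.

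The genes most like IRF9 across the 9 libraries were found by Pearson's r of log2 CPM centred within number series, over 11575 genes with a mean of at least 5 CPM. They were ATRAID (r = 0.99), LPAR1 (0.97), GAS7 (0.97), CMKLR1 (0.96) and TOX4 (0.96). LPAR1, GAS7 and CMKLR1 were among the genes called in knockdown against control, with log2 fold changes of -2.03, -3.36 and -2.78 (edgeR adjusted p = 0.0108, 0.024 and 0.024), whereas ATRAID and TOX4 had -0.41 and -0.42 and were not called. For STAT2 the most alike were FBXL20 (r = 0.98), SLC25A23 (0.95), PGM1 (0.94), CYBRD1 (0.94) and LPIN1 (0.94), none of them called. IRF9 and STAT2 had r = 0.74 with each other. These are descriptions over 9 libraries that share groups and depth differences.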

How the data were processed

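RNA-seq read counts per gene were analysed for 9 libraries of Daoy cells. Libraries were prepared from poly(A) RNA with the unstranded TruSeq v2 kit, per the labels' protocols, and sequenced as single reads of 100 nt. The authors deposited raw counts, and the submitters' processing notes name HISAT2, HTSeq, DESeq2, GRCh37 and hg19, with roles and settings not given in the sources used here. The HTSeq lines that name no gene (20.3% to 35.8% of reads) were left out. Transcript length, GC content and shared exons came from GENCODE v29 (GRCh38), another build, and 51996 identifiers (89.9%) had a symbol.

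Tests were edgeR's robust quasi-likelihood fits (edgeR 4.0.16, R 4.3.3; TMM; group and number series as terms; 4 residual degrees of freedom) over 16155 genes, adjusted after Benjamini and Hochberg. The test was checked on simulated data. Alternatives included DESeq2 1.42.0, other filters, a per-library lowess GC correction (97.7% of tested genes had a GC value) and leaving out libraries. Ratios within a series used counts plus 0.5. Within-group pairs of libraries differed by more than sampling noise. All 9 members are named; of the other pathway and target genes, those called and otherwise 2 per list with the lowest p in knockdown against control, and 5 genes most like IRF9 and STAT2. A gene named by this rule is not reported here. Members and lists were chosen with earlier results of these data known. The number series rests on numbers in the deposited names alone, and its relation to sequencing runs is not stated.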

Additional observations from a re-analysis of the deposited data

Results flagged for a closer look

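The knockdown effect of 3 genes had opposite signs in the 2 number series, with both series A knockdowns on one side of the parental library and shDDX3X 3 on the other side of the vector library. For IRF7 the log2 effect in series B minus that in series A was -3.30 (edgeR interaction term, adjusted p = 0.0536), and for TYK2 it was -1.24 (0.0594). Both miss the threshold, which 516 of 16155 genes passed. Both genes are rich in GC, and their fitted GC trends in the parental library were -1.78 and -0.95 on the log2 scale. Their part in the difference was not tested. For JAK1 the difference was 0.225 (adjusted p = 0.833), with all 3 ratios between -0.19 and 0.13.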

How the results depend on the processing

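Of the 9 genes, the number called in knockdown against control was 0 in the main analysis, where 0.675% of all genes were called. It was 2 by DESeq2 (8.13% of all genes) and 4 without a filter (IRF9, STAT2, IRF1 and TYK2, against 5.79% of all genes). With the GC trend removed it was 1 (IRF9, against 1.88% of all genes). It was 0 to 4 when single libraries were left out, with 4 (IRF9, STAT2, TYK2 and IRF7) without shDDX3X 3, where 13.0% of all genes were called. Leaving out single libraries gave 0 to 2 for mutants against knockdown, 0 to 1 for mutants against control and 0 to 2 for the hairpins. Over all genes, the knockdown calls were 109 in the main analysis and ranged from 0 to 2087. With only the groups compared, none of 15648 genes was called (2295 at an unadjusted p under 0.05).

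Controls and knockdowns share replicate numbers 1 and 2. Deviations from the group means correlated at 0.353 between parental and shDDX3X 1 and at -0.258 between vector and shDDX3X 2. With 2 controls, the deviations of one mirror those of the other, and parental was at 0.353 and 0.258 with the 2 knockdowns of its own number series. The check therefore cannot show whether the replicate numbers pair the libraries. The replicate block called 0 of the 9 and 0 of 15327 genes (882 at an unadjusted p under 0.05), and IFNAR1 was then at 0.195, or 0.1875 in the same 4 libraries without the block.

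The class gap of -0.49 was -0.27 from summed levels, -0.36 in series A alone, -0.79 without IRF7, and, chosen after seeing the data, -0.68 with the GC trend removed and -0.71 without IRF7 and TYK2. It was -0.68 to -0.31 with single libraries left out. A value without IRF9, the gene with the largest fold, is not given.

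Log2 fold changes that changed sign were those of genes near zero or of TYK2 and IRF7, and the cause was not tested. In knockdown against control IFNAR1 was 0.011 without a series term, 0.047 with the GC trend removed, 0.019 in series A alone, and -0.244 to 0.022 with single libraries left out. JAK1 was -0.0035 without a filter, -0.0011 at a mean of at least 5 CPM, -0.10 in series A alone, and -0.10 to 0.13 over left-out libraries. TYK2 was -0.036 in series B alone and -0.038 to 1.206 over left-out libraries. IRF7 was -0.32 with the GC trend removed, -0.997 in series B alone and -1.01 to 2.29 over left-out libraries.

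In wild type against knockdown, without a series term, IFNAR1 was -0.29, IFNAR2 -0.45, TYK2 0.32 and IRF7 0.50. With the GC trend removed IFNAR1 was -0.00045 and IRF7 0.39, and with only the groups compared TYK2 was 0.028 and IRF7 0.85. Over left-out libraries IFNAR1 was -0.11 to 0.15, JAK1 -0.137 to 0.087, TYK2 -1.202 to 0.041 and IRF7 -2.44 to 0.86.

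In mutants against knockdown, without a series term, IFNAR1 was -0.25, IFNAR2 -0.54, JAK1 -0.12, TYK2 0.37 and IRF7 0.066. With the GC trend removed IFNAR1 was -0.025, TYK2 0.048 and IRF7 0.10, and with only the groups compared TYK2 was 0.085 and IRF7 0.423. Over left-out libraries IFNAR1 was -0.069 to 0.200, IFNAR2 -0.053 to 0.166, TYK2 -1.16 to 0.083 and IRF7 -2.88 to 0.42. IRF9, STAT2, IRF1 and USP18 kept their sign in these 3 comparisons under every alternative run. The hairpin comparison was not run with only the groups compared or without shDDX3X 2.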
